A study of Homo sapiens with 6 samples.

Results

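The genes described here are 44 genes of protein folding, quality control and stress signalling in the endoplasmic reticulum (ER). They were chosen by name from a list of ER chaperones, disulfide isomerases, stress sensors, and degradation and translocation factors. All 44 were present among the 23346 genes of the table, and all 44 passed the filter of a mean of at least 0.5 RPKM, along with 14776 genes in all. RPKM is the number of reads scaled to gene length and to the depth of the library. The cells were KhES-1, an established line of human embryonic stem cells, without any genetic change named in the labels. They grew on dishes with a coat of laminin fragment at 0.5 µg per square cm, in AKIT or in Essential 8 medium (E8), the control. E8 is a defined medium that supplies FGF2 and TGF-beta, and in AKIT, as generally known, small inhibitors of GSK3, DYRK kinases and calcineurin take the place of those factors. The series has 3 samples per medium. Here 3 AKIT libraries were set against E8 replicates 1 and 2, while the third E8 sample was not analysed here. All libraries come from 1 cell line, and no label says whether replicates were separate cultures, so a p-value here reflects how far these libraries scatter, and that scatter may be technical.

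The ER is where secreted and membrane proteins enter the secretory pathway, are glycosylated, gain their disulfide bonds and fold. HSPA5 and other chaperones hold unfolded chains, calnexin and calreticulin hold chains with trimmed sugars, and the isomerases form and reshuffle disulfides. When unfolded chains build up, the sensors ERN1 (IRE1), ATF6 and EIF2AK3 (PERK) start the unfolded protein response, whose factors XBP1 and cleaved ATF6 raise the transcription of chaperone and degradation genes. Proteins that do not fold are moved back to the cytosol and degraded by the proteasome.

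The libraries held 16242864 to 23263095 reads, recovered from the steps of the RPKM values. At that depth 1 read in a gene of 1 kb was worth 0.0430 to 0.0616 RPKM. All 7 markers of pluripotent cells were present, at a summed 3026 to 3062 RPKM in AKIT and 3656 to 3717 RPKM in E8. SOX2 (mean of 254 RPKM in AKIT against 435 in E8) and PODXL (764 against 1172) were lower past the threshold given below. The other 5 did not pass it, and DNMT3B was higher in every AKIT library than in either E8 library. AKIT replicate 2 stood apart from the other libraries on the second principal component, at -27.3 against 2.1 to 12.7. Below, values are RPKM, means carry ± SD (n = 3 for AKIT, n = 2 for E8), and a log2 difference, taken on log2(RPKM + 1) with E8 subtracted from AKIT, carries its standard error. This scale understates the change of genes near or under 1 RPKM. "Rose" and "fell" are kept for genes with a Benjamini-Hochberg adjusted p under 0.05 by limma, adjusted over all 14776 genes.

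Of the chaperone genes 6 of 15 rose in AKIT, and of the disulfide genes 2 of 13, while the sensors, degradation genes and translocation genes had no member past the threshold. Of the 44 genes, 8 rose (18.2%) and 2 fell (4.55%). Over all genes tested, 8.22% rose and 11.7% fell. Counted in either direction, the share of the ER genes called was 22.7%, close to the background of 20%. The share that rose was above its background and the share that fell was below it. At an unadjusted p under 0.05 in limma, 17 of the 44 were higher and 5 lower, against 2405 and 2915 of the 14776 genes tested. The median log2 difference of the 44 genes was 0.20, against -0.01 over all genes tested. In 19 of the 44 every AKIT library lay above both E8 libraries, and in 6 every AKIT library lay below them, against a background of 25.8% and 28.6% of all genes. The genes that rose were DNAJB11, CANX, DNAJC3, HSP90B1, UGGT1, DNAJC10, PDIA5 and CRELD2. Those that fell were DNAJB9 and ERO1LB.

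**Figure D1:**
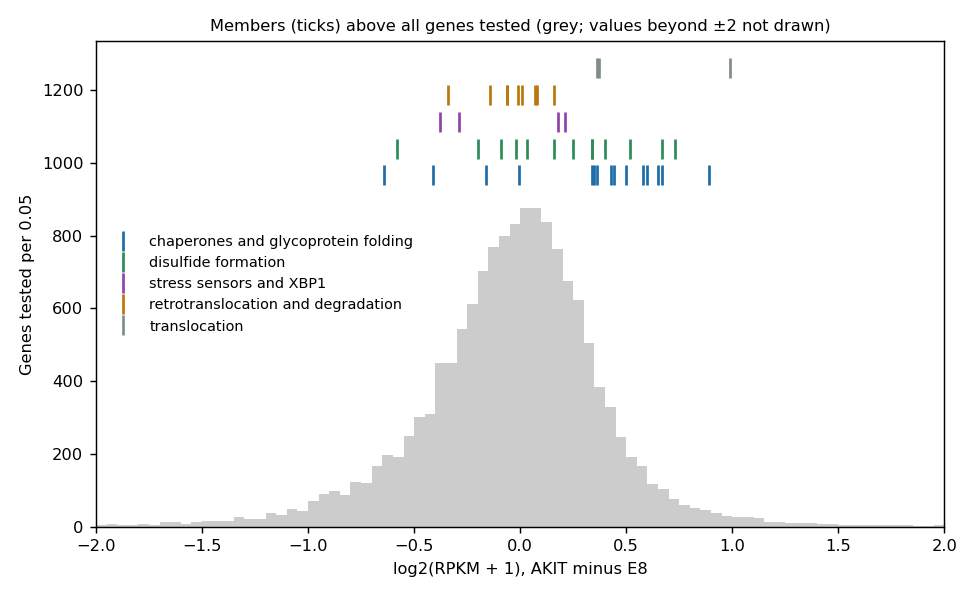
Difference between the media for the 44 ER genes and for all genes tested. The x axis is the log2(RPKM + 1) difference, AKIT minus E8, the grey bars count all genes tested per bin of 0.05, and each tick is 1 ER gene on the line of its role; values beyond ±2 are not drawn. Of the 15 ticks for chaperones and glycoprotein folding, 11 lie above 0, and the 9 ticks for degradation lie between -0.34 and 0.16.

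Those counts rested on single libraries. Without AKIT replicate 2, 21 of the 44 rose and 3 fell, against a background of 14.5% and 17.8% of the genes tested, and all 10 earlier calls were kept. Leaving out AKIT replicate 1 gave 5 that rose and 1 that fell, where 5.35% of all genes tested rose and 8.5% fell. Leaving out AKIT replicate 3 gave 6 and 2, where 4.62% of all genes rose and 7.55% fell. When either E8 library was dropped, few genes of any kind were called: without E8 replicate 1, 0.969% rose and 1.72% fell, and with E8 replicate 2 dropped 0.963% and 1.7%. The calls among the 44 ended in both fits, where the median log2 difference of the 44 was 0.21 without E8 replicate 1 and 0.18 without E8 replicate 2. In those fits the lone E8 sample is assumed to vary like the AKIT samples. The fit on all libraries also takes 1 spread per gene for both media. AKIT replicate 2 was the lowest of the AKIT libraries in 29 of the 44 genes (65.9%, against 40.1% of all genes tested), and AKIT replicate 1 was the highest in 31 (70.5%, against 30.8%). The median of the 44 against the E8 mean, on the log2(RPKM + 1) scale, was 0.39, 0.10 and 0.20 in AKIT replicates 1, 2 and 3.

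**Figure D2:**
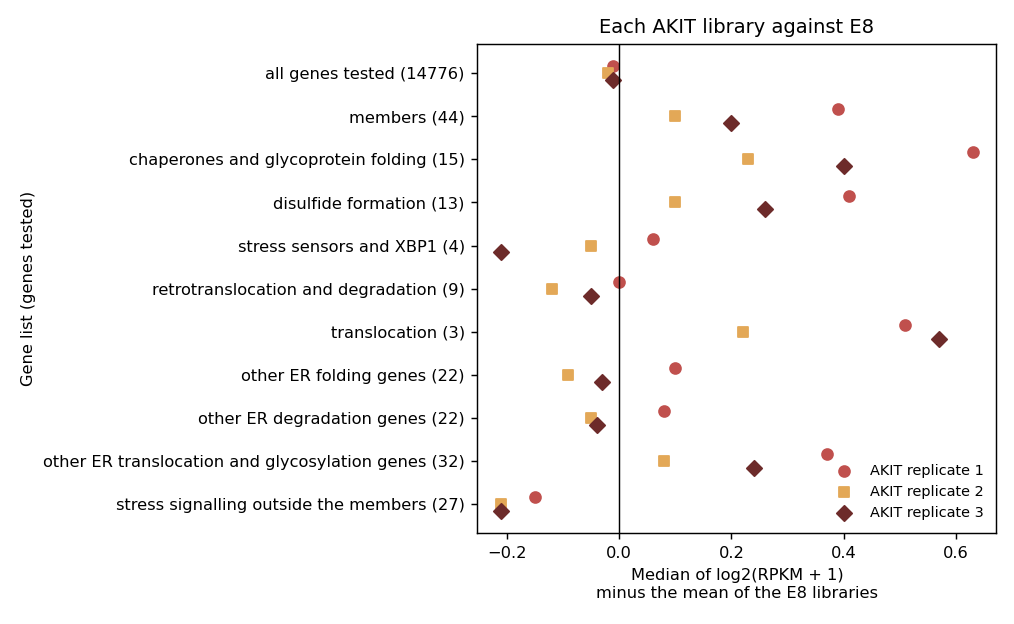
Each AKIT library set against the mean of the E8 libraries. The x axis is the median over the genes of a list of the log2(RPKM + 1) difference, each row is a list with its number of genes tested, and each point is 1 AKIT library, shifted slightly in height so that points do not hide each other. For chaperones and glycoprotein folding the libraries lie at 0.63, 0.23 and 0.40, while over all genes tested they lie at -0.01, -0.02 and -0.01.

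Markers of other cell types also differed among the AKIT libraries. All 9 fibroblast and mesenchyme markers were listed, none of them at 0 in every library, with a summed 204 to 267 RPKM in AKIT and 345 to 347 in E8. THY1 alone gave most of each sum (AKIT replicates 1 to 3: 203, 145 and 157, E8 replicates 1 and 2: 275 and 273). The lower sum in AKIT therefore mainly reflects THY1 and does not describe the list as a whole. Which cells held THY1 was not tested, so its level is not a measure of fibroblasts or mesenchyme. Of the 7 tested, COL1A1 (-0.51, limma adjusted p = 0.0314), THY1 (-0.71, 0.0206) and PDGFRB (-1.15, 0.00992) fell and 0 rose, with counts of 0 and 3 also by voom and at an unadjusted p under 0.05. Over the alternatives their adjusted p in limma reached 0.239, 0.155 and 0.0913. COL3A1 and LUM did not pass but differed most among the AKIT libraries. The AKIT libraries, in the order of their replicate numbers, held COL3A1 at 5.63, 2.15 and 0.141 RPKM, while neither E8 library was above 0.0413. For LUM the AKIT values were 5.81, 1.83 and 0.0244 RPKM, with 0 in both E8 libraries. The 7 endoderm markers summed to 3.65 to 6.15 RPKM in AKIT and 1.81 to 2.17 in E8, with ALB and TTR at 0 in every library. The 5 neuroectoderm markers summed to 4.04 to 7.31 in AKIT and 5.54 to 6.18 in E8, the 5 neural crest markers to 4.20 to 9.46 and 16.8 to 18.3, and the 6 trophoblast and amnion markers to 5.38 to 13.2 and 8.06 to 8.39. Within these lists FOXA2 rose (1.28, limma adjusted p = 0.00778). NGFR (-1.93, limma adjusted p = 0.00126), TFAP2A (-1.32, 0.00616) and KRT7 (-1.28, 0.00399) fell. HAND1 (1.10, limma adjusted p = 0.0776) and CGA (0.80, 0.176) were higher without passing. AKIT replicate 1 held TFAP2B at 2.40 and PAX3 at 1.57 RPKM, while neither E8 library was above 0 and 0.110. AKIT replicate 1 was the highest AKIT library for COL3A1, LUM and 31 of the 44 ER genes. The lowest AKIT library was replicate 3 for COL3A1 and LUM, and replicate 2 for 29 of the 44 ER genes. Both markers were picked after their values were seen. The part of cells of other types in the values below was not tested. In bulk RNA, fewer cells of a type and less RNA per cell cannot be told apart.

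Promoter sequences are shown because they carry the elements through which ATF6 and XBP1 are known to act on these genes. Since the elements are known from such genes, a higher share among the 44 was given beforehand and is not a result. RefSeq promoter windows (GRCh38.p14, 250 bases before to 50 after the start) were matched for 41 of the 44 genes. CANX has several windows, and 1 of them, which overlaps none of the others, lacks the element. The ER stress element was searched as CCAAT and CCACG with 9 bases between them, on both strands. It was found in 8 of the 41 genes (19.5%), against 0.0916% of the 27305 genes with a window and 0.0769% of the 35116 windows. Those genes were HSPA5, HSP90B1, CANX, CALR, CRELD2, PDIA6, XBP1 and ERO1LB. Below, each element is in capitals with its flanks in lower case, read 5′ to 3′ on the strand of the gene; where the element lies on the other strand it reads CGTGG first and ATTGG last.
HSPA5: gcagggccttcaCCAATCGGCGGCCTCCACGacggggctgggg
HSP90B1: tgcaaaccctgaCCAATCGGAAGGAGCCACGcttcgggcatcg
HSP90B1: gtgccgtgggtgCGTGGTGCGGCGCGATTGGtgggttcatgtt
CANX: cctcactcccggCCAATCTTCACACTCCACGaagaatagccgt
CALR: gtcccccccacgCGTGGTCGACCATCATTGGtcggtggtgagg
PDIA6: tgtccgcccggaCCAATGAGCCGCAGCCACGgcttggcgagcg
CRELD2: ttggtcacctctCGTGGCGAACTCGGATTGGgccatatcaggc
XBP1: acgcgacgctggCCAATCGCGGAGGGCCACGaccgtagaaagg
ERO1LB: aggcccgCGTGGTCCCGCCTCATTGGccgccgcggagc

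The stretch of HSPA5 lies at chr9:125241379-125241421 (minus strand), with the element 47 bases before the start. The 2 stretches of HSP90B1 lie at chr12:103930204-103930246 and chr12:103930309-103930351 (plus strand), 175 and 70 bases before the start. That of CANX is at chr5:179698766-179698808 (plus), that of CALR at chr19:12938372-12938414 (plus) and that of PDIA6 at chr2:10812841-10812883 (minus). Those of CRELD2, XBP1 and ERO1LB are at chr22:49918542-49918584 (plus), chr22:28800591-28800633 (minus) and chr1:236282171-236282208 (minus), all in GRCh38.p14.

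Another form, element II, ATTGG and CCACG with 1 base between them, was found in HERPUD1, HYOU1 and SDF2L1 (7.32% of the 41 genes, against 0.0696% of all genes with a window). In HYOU1 it occurred at 2 places, shown with the stretches of the other genes on the strand of each gene.
HERPUD1: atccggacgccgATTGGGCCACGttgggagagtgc
HYOU1: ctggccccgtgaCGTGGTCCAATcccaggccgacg
HYOU1: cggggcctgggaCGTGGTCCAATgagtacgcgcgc
SDF2L1: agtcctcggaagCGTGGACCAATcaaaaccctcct

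The HERPUD1 stretch lies at chr16:56932013-56932047 (plus strand), those of HYOU1 at chr11:119057368-119057402 and chr11:119057262-119057296 (minus) and that of SDF2L1 at chr22:21642102-21642136 (plus). The unfolded protein response element TGACGTGG was found in DNAJC10, HYOU1, TXNDC5 and TXNDC11 (9.76% of the 41 genes, against 0.927% of all genes with a window), and in HYOU1 it overlaps the first stretch shown. Of the 11 genes with either ER stress element, 3 rose (HSP90B1, CANX and CRELD2) and 1 fell (ERO1LB), with log2 differences from -0.58 to 0.67 and a median of 0.44. Of the 30 other matched genes, 5 rose and 1 fell, with a median of 0.12. Over all genes tested, 8.22% rose and 11.7% fell. The fall among genes with an element rested on ERO1LB, at 1.02 to 2.12 RPKM. Whether the elements play a part in these differences was not tested. A match of letters in a window is a description of sequence and not of binding.

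The window of HSPA5, the ER member of the HSP70 family, is printed whole because its promoter is a textbook target of the unfolded protein response. It spans chr9:125241294-125241593 on the minus strand of GRCh38.p14, with its 1 element in capitals.
HSPA5: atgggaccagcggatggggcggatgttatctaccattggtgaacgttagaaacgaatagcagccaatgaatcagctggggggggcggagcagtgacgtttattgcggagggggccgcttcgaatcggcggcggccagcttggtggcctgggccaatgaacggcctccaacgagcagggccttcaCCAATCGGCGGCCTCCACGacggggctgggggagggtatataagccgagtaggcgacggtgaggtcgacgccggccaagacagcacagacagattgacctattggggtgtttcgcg

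In level, which RPKM allows to be set side by side across genes, the 44 genes spanned from CALR to CDNF by their E8 mean. CALR, the calcium-binding lectin chaperone calreticulin, was the highest of them in every library and made up 18.3% to 21.6% of their summed RPKM. In E8, 11 of the genes had a mean over 100 RPKM, 17 lay between 10 and 100, 14 between 1 and 10, and ERN1 and CDNF lay under 1. The order below CALR was not fixed: HSPA5, ERP29, CANX, HSP90B1 and P4HB changed places between libraries. The summed level of the 44 genes was 3809, 2860 and 3307 RPKM in the AKIT libraries, and 2524 and 2475 RPKM in E8 replicates 1 and 2. That was 0.861% to 1.09% of all RPKM in AKIT and 0.722% to 0.735% in E8. Of the 11 genes over 100 RPKM in E8, 10 had a log2 difference above 0 (median 0.40). Of the 16 genes under 10 RPKM, 6 had (median -0.03). Among all genes tested, 7218 of 14776 lay above 0 (median -0.01). Genes of like level outside the 44 were not compared, so a trend with level is not shown to be particular to the 44.

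**Figure D3:**
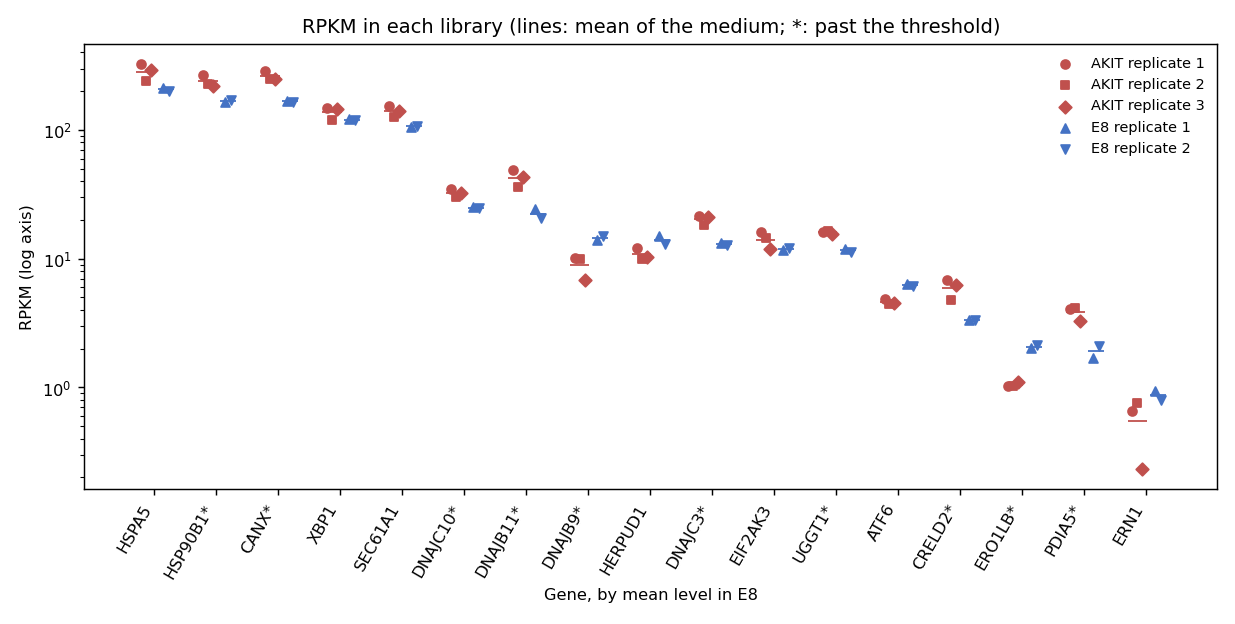
RPKM of 17 of the ER genes in each library on a log axis, in the order of their E8 mean. Red points are AKIT replicates 1 to 3, blue points are E8 replicates 1 and 2, short lines are the mean of each medium, and an asterisk marks genes past the threshold. In DNAJB11 the AKIT points (36.2 to 48.6) lie well above the E8 points (20.6 and 24.1), while in ERO1LB the AKIT points (1.02 to 1.11) lie below them (2.02 and 2.12).

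Chaperones and glycoprotein folding. Of these 15 genes, 6 rose (40%) and 1 fell (6.67%), against 8.22% and 11.7% of all genes tested. The median log2 difference was 0.43, against -0.01 over all genes tested. DNAJB11, a J-domain partner of HSPA5 that binds unfolded chains, had the largest rise. In the order of the replicate numbers, as in all such lists below, it was at 48.6, 36.2 and 43.0 RPKM in AKIT and 24.1 and 20.6 in E8. Every AKIT library was above both E8 libraries, and the mean was 1.90 times that in E8 (42.6 ± 6.18 against 22.4 ± 2.51, 0.89 ± 0.14 on the log2 scale, limma adjusted p = 0.00822). DNAJC3, a J-domain co-chaperone known to inhibit EIF2AK3, was at 21.5, 18.2 and 21.0 RPKM in AKIT and 13.3 and 12.8 in E8. The groups did not overlap, and the log2 difference was 0.60 ± 0.11 (limma adjusted p = 0.0124). DNAJC10, a J-domain disulfide reductase that readies proteins for degradation, was at 35.1, 30.3 and 32.1 RPKM in AKIT and 25.0 and 25.0 in E8. Its rise was the smallest of those called (0.36 ± 0.10, limma adjusted p = 0.0438).

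CANX, the membrane-bound lectin chaperone calnexin, was at 289, 248 and 251 RPKM in AKIT and 168 and 166 in E8. It rose 1.57 times in the mean, with a log2 difference of 0.65 ± 0.11 (limma adjusted p = 0.00991). Its soluble relative CALR was at 824, 567 and 698 RPKM in AKIT and 464 and 454 in E8. All AKIT libraries of CALR were above E8, replicate 1 by most, and the difference of 0.58 ± 0.17 just missed the threshold (limma adjusted p = 0.0503). UGGT1, which adds glucose back to misfolded glycoproteins and so returns them to these lectins, was at 16.0, 16.6 and 15.5 RPKM in AKIT and 11.97 and 11.3 in E8. Its AKIT libraries lay close together and above E8 (0.43 ± 0.10, limma adjusted p = 0.0239). Its paralog UGGT2 was at 1.27 ± 0.308 in AKIT and 1.26 ± 0.196 in E8, with a 95% interval of the log2 difference from -0.39 to 0.38.

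HSP90B1, the ER member of the HSP90 family, was at 268, 227 and 220.2 RPKM in AKIT and 164 and 170.4 in E8. The mean was 1.43 times that in E8 (0.50 ± 0.12 on the log2 scale, limma adjusted p = 0.0267). HSPA5 was at 324, 238 and 290.4 RPKM in AKIT and 213 and 201 in E8. Its groups did not overlap either, but AKIT replicate 2 lay near E8, and the difference of 0.44 ± 0.14 did not pass (limma adjusted p = 0.0726). HYOU1 and SIL1, the nucleotide exchange factors of HSPA5, went opposite ways without passing. HYOU1 was at 82.8 ± 6.89 in AKIT and 65.3 ± 0.378 in E8 (0.34 ± 0.10, limma adjusted p = 0.0601), and SIL1 at 1.28 ± 0.0751 and 2.03 ± 0.0270 (-0.41 ± 0.12, limma adjusted p = 0.0562).

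DNAJB9 was the 1 chaperone gene that fell. It encodes a J-domain co-chaperone that serves degradation and keeps ERN1 inactive, and it is a well-known XBP1 target. It was at 10.2, 10.01 and 6.84 RPKM in AKIT and 14.0 and 14.9 in E8. All AKIT libraries were below E8, replicate 3 by most, and the mean was 0.625 times that in E8 (-0.64 ± 0.17 on the log2 scale, limma adjusted p = 0.0406). Of the secreted stress proteins, MANF was at 76.6, 47.7 and 77.6 RPKM in AKIT against 41.0 and 41.2 in E8 (0.67 ± 0.21, limma adjusted p = 0.0666), and CDNF rested on 7 to 12 reads per library. SDF2L1, a partner of DNAJB11, was at 30.3, 16.3 and 30.4 RPKM in AKIT and 18.6 and 19.7 in E8. In MANF and SDF2L1 replicate 2 was far below the other AKIT libraries, and for SDF2L1 it lay below both E8 libraries.

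The chaperone calls depended on which libraries were used. Without AKIT replicate 2, 11 of the 15 rose, now including HSPA5, HYOU1, SDF2L1, MANF and CALR (limma adjusted p = 0.000891 to 0.0172 for these), and DNAJB9 fell. Calls were more frequent in general in that fit, where 14.5% of all genes tested rose and 17.8% fell. Without AKIT replicate 1, the calls of DNAJB9, DNAJC10 and UGGT1 ended (limma adjusted p = 0.0519 to 0.0876), and without AKIT replicate 3 that of DNAJC10 (0.0882). Without E8 replicate 1 the adjusted p of the 7 called genes was 0.058 to 0.267, and without E8 replicate 2 it was 0.0979 to 0.272.

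**Figure D4:**
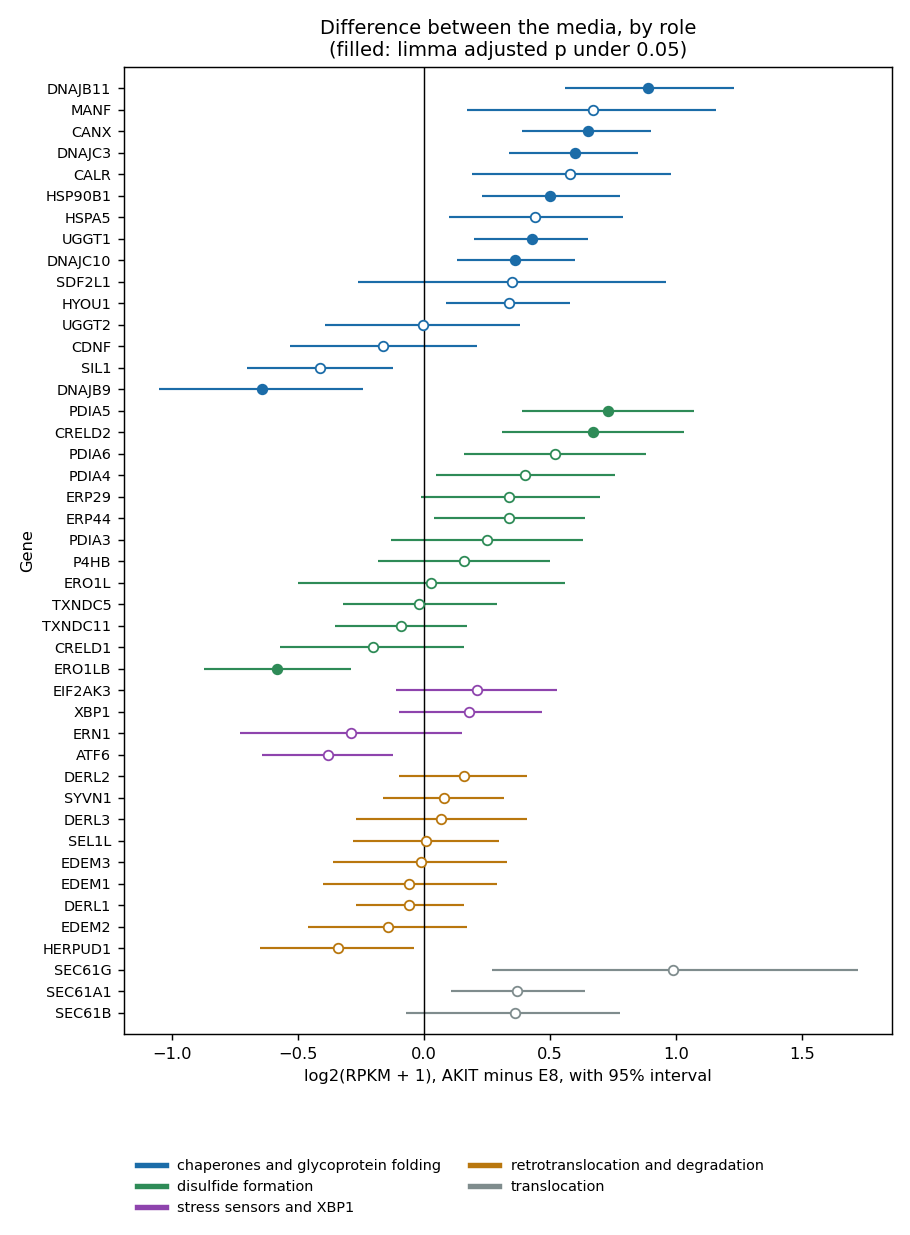
Difference between the media for each of the 44 ER genes, grouped by role. Points are log2(RPKM + 1) differences, AKIT minus E8, lines are 95% intervals from limma, and filled points are past the threshold. Filled points occur among chaperones (7) and disulfide genes (3), and the widest interval of the translocation genes is that of SEC61G (0.27 to 1.72).

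Disulfide formation. Of these 13 genes, 2 rose (15.4%) and 1 fell (7.69%), against 8.22% and 11.7% of all genes tested. The median log2 difference was 0.25, against -0.01 over all genes tested. PDIA5, a low-level isomerase, was at 4.04, 4.18 and 3.27 RPKM in AKIT and 1.70 and 2.12 in E8. Its mean was 2.005 times that in E8, the largest ratio among the isomerases (0.73 ± 0.14 on the log2 scale, limma adjusted p = 0.0162). CRELD2, a secreted ER stress protein that binds isomerases, was at 6.80, 4.804 and 6.25 RPKM in AKIT and 3.34 and 3.32 in E8. It rose by 0.67 ± 0.15 (limma adjusted p = 0.025), while its membrane-bound relative CRELD1 was at 4.70 ± 0.933 and 5.50 ± 0.209 (limma adjusted p = 0.39). ERO1LB, an oxidase that hands oxidizing equivalents to the isomerases, was at 1.02, 1.03 and 1.11 RPKM in AKIT and 2.02 and 2.12 in E8. Its mean was 0.51 times that in E8 (-0.58 ± 0.12 on the log2 scale, limma adjusted p = 0.0208). The other oxidase, ERO1L, a known hypoxia target, was at 17.3, 14.1 and 9.52 RPKM in AKIT and 12.1 and 13.9 in E8, so that its AKIT libraries lay on both sides of E8 (0.03 ± 0.22).

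Of the other isomerases over or near 100 RPKM, none passed, and TXNDC5 was not higher in the mean in AKIT. PDIA6 was at 171 ± 30.1 RPKM in AKIT and 118 ± 2.61 in E8 (0.52 ± 0.15 on the log2 scale, limma adjusted p = 0.0544), and PDIA4 at 156 ± 27.4 and 116 ± 5.21 (0.40 ± 0.15, limma adjusted p = 0.105). In both, every AKIT library was above E8, with replicate 2 the lowest. P4HB, the classical protein disulfide isomerase, was at 190.5 ± 30.6 and 169.5 ± 9.30, and PDIA3, which works with the lectin chaperones, at 116 ± 21.7 and 96.3 ± 6.48, with overlapping groups. ERP29 (0.34 ± 0.15) and ERP44 (0.34 ± 0.13), the latter a retention factor for the oxidases, had adjusted p values of 0.151 and 0.106 in limma. TXNDC11 was at 7.59 ± 0.531 and 8.13 ± 0.245 RPKM. TXNDC5 was at 113 ± 15.5 in AKIT and 114 ± 1.02 in E8. Its value is uncertain, since the table has a second row, named as a read-through of MUTED into TXNDC5, with nearly as many reads.

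In the disulfide group, 6 rose without AKIT replicate 2, with PDIA3, PDIA4, PDIA6 and ERP29 added (limma adjusted p = 0.00621 to 0.0382). In that fit 14.5% of all genes tested rose and 17.8% fell. The call of CRELD2 ended without AKIT replicate 1 (limma adjusted p = 0.0607) or replicate 3 (0.0732). All 3 calls ended without E8 replicate 1 (0.153 to 0.164) or E8 replicate 2 (0.0907 to 0.183).

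Stress sensors and XBP1. None of the 4 genes passed the threshold in limma. At an unadjusted p under 0.05 in limma, 0 were higher and 1, ATF6, was lower, against 2405 and 2915 of the 14776 genes tested. Voom on recovered reads, which called 8.37% of all genes higher and 12.9% lower, called ATF6 lower. ATF6, the sensor that is cleaved in the Golgi, was at 4.87, 4.43 and 4.50 RPKM in AKIT and 6.37 and 6.19 in E8. All AKIT libraries were below E8, close together, with a log2 difference of -0.38 ± 0.11 (limma adjusted p = 0.051). Without AKIT replicate 2 its adjusted p was 0.0462, and it was 0.0692 to 0.299 with any other library left out. ERN1, the kinase and endoribonuclease that splices XBP1 mRNA, was at 0.655, 0.751 and 0.232 RPKM in AKIT and 0.933 and 0.799 in E8. It lay below E8 in every AKIT library, on 18 to 70 reads per library, with a difference of -0.29 ± 0.19 (limma adjusted p = 0.313).

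EIF2AK3, the kinase that slows translation through eIF2, was at 16.0, 14.4 and 11.9 RPKM in AKIT and 11.8 and 12.1 in E8. AKIT replicate 3 lay between the E8 libraries and the others above them (0.21 ± 0.14, limma adjusted p = 0.307). XBP1, the factor made from the spliced mRNA, was at 147, 119 and 145 RPKM in AKIT and 121 and 119 in E8. AKIT replicate 2 lay between the E8 libraries and the other AKIT libraries above them, with a difference of 0.18 ± 0.12 (95% interval from -0.10 to 0.47, limma adjusted p = 0.317). XBP1 rose without AKIT replicate 2 (0.28, limma adjusted p = 0.0289). RPKM per gene does not tell spliced from unspliced XBP1, nor cleaved from full-length ATF6.

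Retrotranslocation and degradation. None of these 9 genes passed in limma, and the median log2 difference was -0.01. At an unadjusted p under 0.05 in limma, 0 were higher and 1, HERPUD1, was lower, against 2405 and 2915 of the 14776 genes tested. Voom called 0. HERPUD1, a membrane scaffold of the degradation complex induced by ER stress, was at 12.2, 9.96 and 10.2 RPKM in AKIT and 15.04 and 12.9 in E8. All AKIT libraries were below E8 (-0.34 ± 0.13, limma adjusted p = 0.102). The ubiquitin ligase SYVN1 was at 18.1 ± 1.34 in AKIT and 17.1 ± 0.106 in E8, with a 95% interval of the log2 difference from -0.16 to 0.32, and its partner SEL1L at 8.99 ± 1.08 and 8.90 ± 0.189 (-0.28 to 0.30). EDEM1, EDEM2 and EDEM3, which trim mannose on misfolded glycoproteins, had log2 differences of -0.06, -0.14 and -0.01. DERL1, DERL2 and DERL3, parts of the retrotranslocation channel, had differences of -0.06, 0.16 and 0.07. Of the 9 intervals, that of HERPUD1 (-0.65 to -0.04) lay wholly on one side of 0.

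Translocation. The 3 genes encode the subunits of the SEC61 channel, through which new chains enter the ER. None passed in limma, and voom called SEC61A1 higher. At an unadjusted p under 0.05 in limma, 2 were higher and 0 lower, against 2405 and 2915 of the 14776 genes tested. SEC61A1, the pore subunit, was at 153, 125 and 139 RPKM in AKIT and 106 and 108 in E8. The groups did not overlap (0.37 ± 0.11, limma adjusted p = 0.0584). SEC61B was at 75.8, 52.2 and 78.8 RPKM in AKIT and 51.8 and 53.8 in E8, with AKIT replicate 2 inside the E8 range. SEC61G, at 4.61, 2.31 and 5.64 RPKM in AKIT and 1.09 and 1.98 in E8, had the largest log2 difference of the 44 genes (0.99 ± 0.31) on 9 to 51 reads per library (limma adjusted p = 0.063). All 3 rose without AKIT replicate 2 (limma adjusted p = 0.00434 to 0.0102), where 14.5% of all genes tested rose.

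Other genes of the same pathways were taken from lists by function. Of 22 tested genes of ER folding outside the 44, 2 rose (9.09%) and 0 fell in limma, with a median log2 difference of 0.02. Over all genes tested, 8.22% rose and 11.7% fell. At an unadjusted p under 0.05 in limma, 4 were higher and 3 lower, against 2405 and 2915 of the 14776 genes tested, and 0 fell by voom. TMX2, a membrane thioredoxin, rose (60.8 ± 3.56 RPKM in AKIT against 41.1 ± 1.30 in E8, limma adjusted p = 0.0103). GPX7, an ER peroxidase, rose as well (13.9 ± 1.39 against 9.39 ± 0.5998, limma adjusted p = 0.0244). Of 22 degradation genes, 2 rose and 2 fell (9.09% each, against 8.22% and 11.7% of all genes tested), with a median of -0.04. NGLY1, which strips sugars from retrotranslocated proteins, rose from 5.42 ± 0.0299 to 10.2 ± 0.950 RPKM and AUP1 from 15.3 ± 0.686 to 23.6 ± 0.750. UBE2J1, a ubiquitin-conjugating enzyme, fell from 11.97 ± 0.667 to 7.32 ± 0.765, as did RNF139 (-0.37), the latter named after its values were seen.

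Of 32 genes of translocation and glycosylation outside the 44, 25 lay above 0, with a median log2 difference of 0.21. In limma 4 rose (12.5%, against 8.22% of all genes tested) and 0 fell (against 11.7%), and 0 fell by voom. At an unadjusted p under 0.05 in limma, 12 were higher and 0 lower, against 2405 and 2915 of the 14776 genes tested. Those that rose were SEC11C, a signal peptidase subunit (9.16 ± 2.26 RPKM in AKIT against 4.44 ± 0.486 in E8), SSR3, a subunit of the translocon-associated complex (93.0 ± 11.5 against 60.4 ± 0.782), and STT3A, a catalytic subunit of oligosaccharyltransferase (26.6 ± 3.02 against 17.2 ± 0.672). The fourth, TRAM1 (log2 difference 0.52), was named after its values were seen. In this list AKIT replicate 2 was the lowest AKIT library in 27 of 32 genes (84.4%, against 40.1% of all genes tested). Without it 12 rose, where 14.5% of all genes tested rose.

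Of 27 tested genes of stress signalling outside the 44, 0 rose and 5 fell (18.5%) in limma, and the same numbers by voom. Over all genes tested, 8.22% rose and 11.7% fell in limma. At an unadjusted p under 0.05 in limma, 0 were higher and 9 lower, against 2405 and 2915 of the 14776 genes tested. In this list 20 genes lay below 0 and 7 above 0, with a median log2 difference of -0.18. ASNS, the asparagine synthetase induced by ATF4, was at 19.2, 13.4 and 20.4 RPKM in AKIT and 41.2 and 39.1 in E8. It had the largest fall of the list, with all AKIT libraries far below E8 (-1.16 ± 0.18, limma adjusted p = 0.00661). CREB3L1, a membrane-bound relative of ATF6, was at 4.62, 4.71 and 3.94 RPKM in AKIT and 8.76 and 10.8 in E8 (-0.99 ± 0.14, limma adjusted p = 0.00468). CHAC1, a glutathione-degrading enzyme downstream of ATF4, was at 29.3, 24.1 and 30.8 RPKM in AKIT and 53.5 and 45.4 in E8 (-0.80 ± 0.13, limma adjusted p = 0.00995). TRIB3 (-0.75) and BBC3 (-0.44) also fell, named after their values were seen, as are ATF4 and DDIT3. ATF4 itself, whose translation EIF2AK3 favours, was at 206, 182 and 203 RPKM in AKIT and 230.3 and 249 in E8 (limma adjusted p = 0.103), and DDIT3, the factor known as CHOP, at 11.5, 15.7 and 12.6 RPKM in AKIT and 15.1 and 14.9 in E8 (limma adjusted p = 0.404).

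Of the genes named in these other lists, several calls ended with 1 library left out. Without AKIT replicate 1, GPX7 (limma adjusted p = 0.051), RNF139 (0.0926), SEC11C (0.0703) and BBC3 (0.0508) were no longer called. Without AKIT replicate 3 the same held for GPX7 (0.052), RNF139 (0.0708), SEC11C (0.0806), TRIB3 and BBC3 (0.0643 to 0.0829). With E8 replicate 1 left out only CREB3L1 stayed called of the 15 genes called in these lists (limma adjusted p = 0.0399), and with E8 replicate 2 left out none did, the smallest adjusted p being 0.0612.

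**Figure D5:**
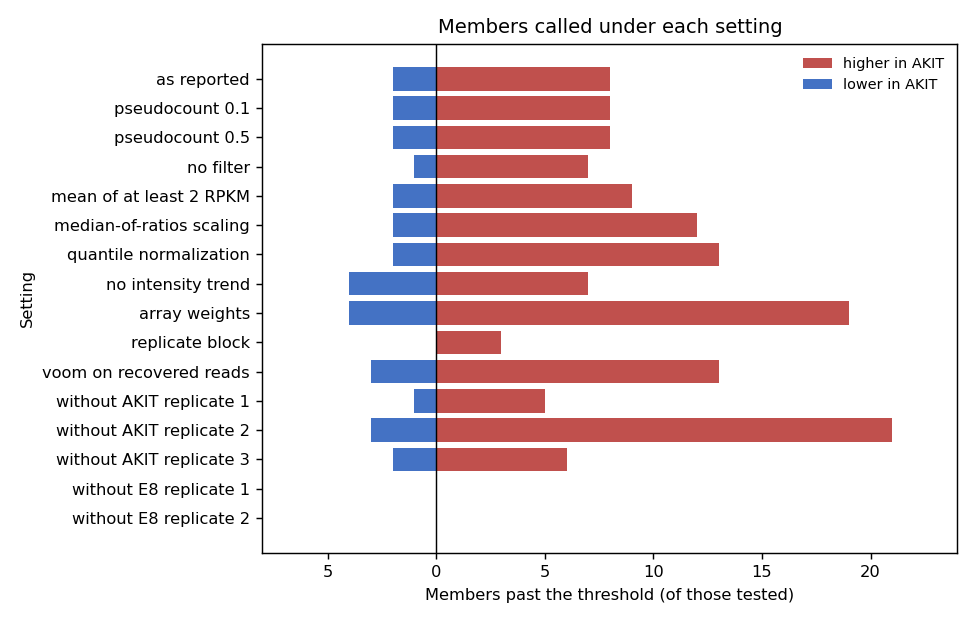
Number of the 44 ER genes past the threshold under each setting. Bars to the right count genes higher in AKIT and bars to the left genes lower in AKIT; each row is 1 processing choice or 1 library left out. The number higher runs from 0 with either E8 library left out, over 8 as reported, to 21 without AKIT replicate 2.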

How the data were processed

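Per the labels' protocols, total RNA of KhES-1 cells was purified with a Qiagen kit and made into Illumina libraries. The authors deposited RPKM values, 1 column per library, and the submitters' processing notes name hg19 and GRCh37. How reads were aligned, on which gene models and with what regard to strand they were counted is not given in the sources used here, so reads of overlapping and antisense genes cannot be told apart. Columns were matched to samples by title.

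Whole reads were recovered from the RPKM steps as the smallest whole-number solution within 0.02 reads, which was found for 100% of the 19892 genes above 0. The read numbers of a gene may therefore be too low by a common factor. They give depth and an alternative fit, and cover counting error only. No library pair agreed within sampling noise (chi-square per gene of 3.3 between the E8 libraries, 16.6 to 31.7 between AKIT libraries), and every library was kept as its own replicate.

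Genes averaging 0.5 RPKM or more over the libraries were fitted on log2(RPKM + 1) in limma 3.58.1 under R 4.3.3, with its trend option, two-sided and without covariates. P-values were adjusted by Benjamini-Hochberg over all 14776 genes. The fit compared 3 AKIT with 2 E8 libraries. It took 1 spread per gene for both media, although the E8 libraries lay closer together than the AKIT libraries. On simulated data with known changes in few genes and equal spread in both media, the share of false calls was above the nominal level of the adjusted p. Calls near the threshold are therefore to be read with caution. The data differ in both respects, so the size of this excess in them is not known. The genes and lists were chosen with earlier results of these data known, so no list was tested as a set. Values in every library are given for each gene past the threshold, for HSPA5, HSP90B1, XBP1, ATF6, ERN1 and EIF2AK3, for the smallest p in a role without calls, and for some others of the 44, chosen after their values were seen. From each other list up to 3 called genes were named by size of change. As alternatives the fit was repeated at a pseudocount of 0.1 or 0.5, with the filter removed or raised to 2 RPKM, and with median-of-ratios and quantile scaling, no trend, array weights, a replicate block, voom on recovered reads, and each library left out. Protein sequences were not used here.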

Additional observations from a re-analysis of the deposited data

How the results depend on the processing

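Over 15 alternatives, 753 of 910 values of the named genes kept their direction and side of the threshold, 46 passed it newly, 88 no longer passed and 23 changed sign. With pseudocounts of 0.1 or 0.5 the same 8 and 2 of the 44 genes were called as in the report. The other settings moved counts, and the cause was not tested. Array weights gave 2269 genes higher and 2740 lower in all; 19 and 4 of the 44, 11 and 2 chaperones, 5 disulfide genes and 3 translocation genes higher, 1 sensor lower, 4 higher and 3 lower in other folding, 4 higher in other degradation and 13 higher in other translocation and glycosylation. Quantile normalization called 13 of the 44 higher (9.61% of all genes), among them 4 disulfide genes and 1 translocation gene. With voom, 13 were higher (8.37% of all genes), including 1 translocation gene, and 1 sensor was lower. Without a filter 1 disulfide gene was higher, 1 of the 44 lower (7.63% of all genes), 0 chaperones lower and 1 other degradation gene lower. Median-of-ratios scaling called 12 of the 44 higher (9.1% of all genes), with 1 translocation gene, and 1 other degradation gene lower. Without a trend 4 of the 44 were lower (11.5% of all genes; 2 chaperones, 1 sensor), and 1 other degradation gene. A minimum of 2 RPKM, which drops ERO1LB, left 0 disulfide genes lower and called 1 sensor lower.

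No label says that same-numbered libraries of the media share more than a number. Their deviations from the mean of their medium correlated at -0.001 (replicate 1) and 0.025 (replicate 2) across 14776 genes. With 2 E8 libraries the deviations of E8 replicate 1 mirror those of E8 replicate 2. These values therefore cannot tell whether a batch was shared. With the replicate block, 492 genes were higher and 824 lower, 3 and 0 of the 44 (CANX, DNAJB11 and PDIA5), 2 and 0 chaperones, 1 and 0 disulfide genes, 1 other folding gene and 0 other translocation and glycosylation genes higher, and 1 other degradation and 3 stress signalling genes lower. AKIT replicate 3 has no partner in this fit.

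Leaving out each library in turn gave 142 to 2132 genes higher and 250 to 2619 lower in all, and 0 to 21 and 0 to 3 of the 44. It gave 0 to 11 and 0 to 1 chaperones, 0 to 6 and 0 to 1 disulfide genes, 0 to 1 and 0 to 1 sensors, and 0 to 3 translocation genes higher. In the other lists it gave 0 to 4 and 0 to 1 for folding, 0 to 4 and 0 to 3 for degradation, 0 to 12 higher for translocation and glycosylation, and 0 to 6 lower for stress signalling.

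Signs changed only in genes with a difference near 0. UGGT2 was at 0.01 with median-of-ratios scaling, 0.13 with quantile normalization, 0.11 with the replicate block and -0.09 to 0.11 with a library left out. TXNDC5 was at 0.01 with median-of-ratios scaling, 0.03 with array weights and -0.12 to 0.08 with a library left out. EDEM3 was at 0.01, 0.05 and 0.03 with median-of-ratios scaling, quantile normalization and array weights, and -0.11 to 0.09 with a library left out. ERO1L was at -0.01 with array weights and -0.15 to 0.25 with a library left out, and EDEM1 at 0.01 with the replicate block and -0.18 to 0.01. SEL1L and DERL3 ranged from -0.08 to 0.07 and from -0.02 to 0.14 with a library left out. Depth limits CDNF, SEC61G and ERN1, with 7 to 12, 9 to 51 and 18 to 70 reads.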
